A study of Mus musculus with 6 samples.

Results

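To examine the genes that charge transfer RNAs with amino acids in tumor cells with and without an induced LINE-1 (L1) retrotransposon, read counts of the aminoacyl-tRNA synthetases were compared between 3 untreated and 3 doxycycline-treated cultures of 4T1-tetL1(GLucAI) cells. The genes were taken by symbol and not by their values: 36 named synthetase genes of the 24421 genes in the count table, of which 20 encode cytosolic or shared enzymes and 16, whose symbols end in 2, encode mitochondrial enzymes. All 36 were among the 13084 genes that passed the filter on low counts.

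4T1 is a mouse breast carcinoma line (strain label BALB/cfC3H). Every library in both groups came from the same stable population, in which a PiggyBac transposon had placed a recoded mouse L1 under a bidirectional doxycycline-responsive promoter (TRE3G-BI) that also drives firefly luciferase, with an antisense Gaussia luciferase reporter behind the L1, and in which an EF1α promoter drove the Tet-On 3G activator and blasticidin resistance. The treated cultures received 400 ng/mL doxycycline for 48 h. The control cultures are called untreated in the sample titles and vehicle in the treatment tag. No library received doxycycline without the cassette, so responses to the drug, to L1 and to firefly luciferase cannot be told apart. Directions rest on the labels, because the transcript of the cassette was not analysed here. The study calls the replicates biological triplicates, and p-values measure the spread between these libraries.

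Library totals ran from 31653464 to 43631312 counts, and 3 counts, the floor for detection, equalled 0.0688 to 0.0948 CPM (counts scaled to library size), which covers counting error only. The epithelial markers expected of the line, summed, lay between 1394 and 1538 CPM in every library, while leukocyte markers summed to 6 to 22 counts and endothelial markers to 6 to 26 counts. Of the 13084 genes tested, 121 were higher (0.925%) and 283 lower (2.16%) in doxycycline libraries by edgeR's quasi-likelihood test, with p-values adjusted over all genes tested (Benjamini-Hochberg) and a threshold of 0.05.

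Each synthetase joins an amino acid to the matching tRNA and so sets which residue a codon receives. Cells keep separate enzymes for the cytosol and for the mitochondrial matrix, all encoded in the nucleus. The enzymes fall into structural classes I and II, and several cytosolic ones are held together in the multisynthetase complex. Many cytosolic synthetase genes are known targets of ATF4, a transcription factor whose translation rises when the initiation factor eIF2 is phosphorylated, and ATF4 binds with C/EBP partners to an element of the form TGATGNAA.

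Because many cytosolic synthetase genes are known ATF4 targets, this element was searched for in the RefSeq promoter windows (GRCm38.p6). These run from 250 bases before to 50 bases after a transcript start. A window was used for 12 of the 20 cytosolic or shared genes and for 14 of the 16 mitochondrial genes. The letters TGATGNAA, or TTNCATCA on the other strand, were present in 4 of the 12 cytosolic windows. They were in the windows of 0 of the 14 mitochondrial genes, a count of genes because Aars2 had 2 windows. The same letters were in 1304 of all 32851 windows (3.97%). The 4 genes were Tars, Yars, Iars and Gars, which charge threonine, tyrosine, isoleucine and glycine tRNAs. All 4 belong to the 13 genes listed here as ATF4 targets, for 7 of which a window was used, and 0 of the 5 windows of other cytosolic genes held the letters. With only the bases before the start, 2 cytosolic windows (Tars, Gars) held a match, against 3.45% of all windows. A match is a description of the sequence and was not tested for binding.

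The 4 matches are printed 5′ to 3′ on the strand of the gene, 30 bases each, with the element in capitals, so that the element of the gene that passed the test (Tars) can be read beside the others.
Tars, chr15:11399655-11399684, minus strand, element from base -15: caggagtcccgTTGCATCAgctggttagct
Yars, chr4:129189895-129189924, plus strand, element from base 4: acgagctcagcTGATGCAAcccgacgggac
Iars, chr13:49682126-49682155, plus strand, element from base 8: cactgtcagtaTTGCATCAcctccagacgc
Gars, chr6:55037960-55037989, plus strand, element from base -30: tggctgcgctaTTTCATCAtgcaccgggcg
Positions are counted from the transcript start of the window, negative before it. The elements of Tars and Iars are letter for letter the same, and that of Yars is the same letters read on the other strand. For Yars the start of the window lies inside the annotated gene, downstream of its first base. Cars, Hars, Lars, Nars, Rars, Vars, Wars, Hars2 and Pars2 had no window.

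**Figure D1:**
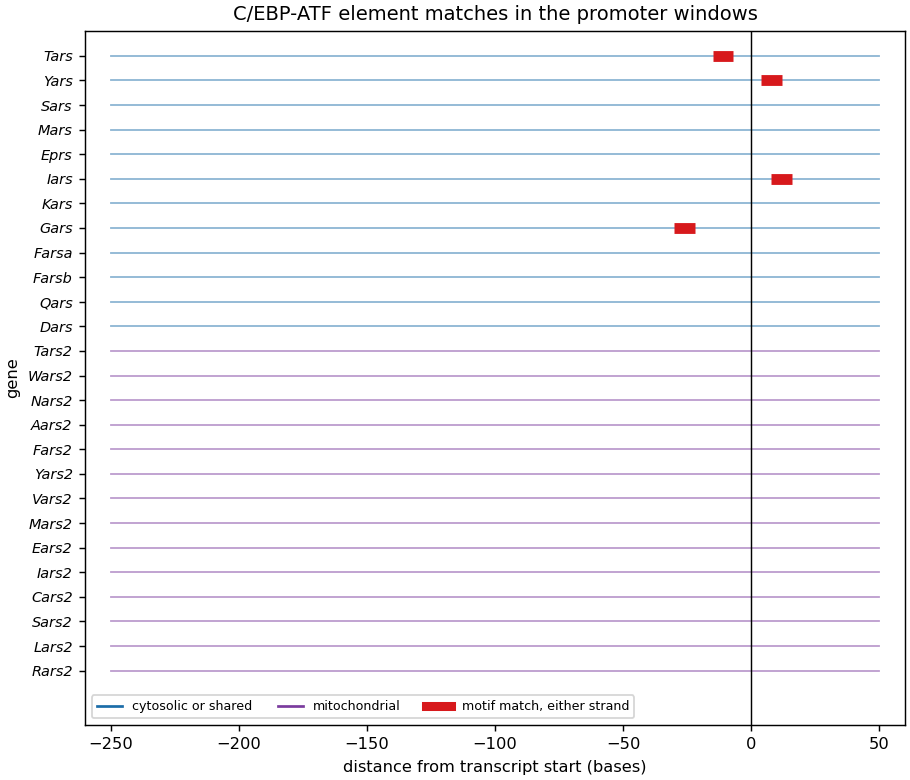
Positions of matches to the C/EBP-ATF element in the promoter windows of 26 synthetase genes, with distance from the transcript start in bases on the x axis and 1 gene per row. Thin lines are the windows of 12 cytosolic or shared genes and 14 mitochondrial genes, and thick bars are the 4 matches, all in cytosolic genes and all within 30 bases of the start.

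The cytosolic or shared synthetases lay slightly higher in doxycycline libraries as a group of values, and 2 of 20 passed the test. Tars and Cars rose. The fitted log2 fold change was above 0 for 20 of 20, although Dars (0.009) turned to -9e-04 when only library size was used for scaling. The median was 0.10, with a range from 0.009 to 0.22, against a median of 0.0025 over all genes tested. Over all genes, 50.8% had a log2 fold change above 0 and 0.925% were called higher.

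Tars, the cytosolic threonyl-tRNA synthetase (chr15:11383663-11399658, protein coding), measured 245, 242 and 236 CPM in untreated replicates 1 to 3 and 271, 276 and 279.5 CPM in doxycycline replicates 1 to 3. Each doxycycline library lay above each untreated one. The log2 fold change was 0.19 with a standard error (SE) of 0.043 and an adjusted p of 0.0135 (edgeR quasi-likelihood test).

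Cars, the cysteinyl enzyme (chr7:143557230-143600090, protein coding), measured 85.9, 87.0 and 84.2 CPM in untreated libraries and 94.9, 107 and 98.2 CPM in doxycycline libraries. The groups again did not overlap, and replicate 2 was the highest of the treated libraries. The log2 fold change was 0.22 (SE 0.053, adjusted p = 0.0216, edgeR). Cars overlaps the genes Gm15580 and Mir7064 in the annotation, and the strand setting of the counting is not stated. Both calls were lost without untreated replicate 1, 2 or 3 or without doxycycline replicate 3, where the adjusted p lay between 0.0701 and 0.159 for Cars and between 0.059 and 0.15 for Tars, while the log2 fold changes stayed between 0.18 and 0.23.

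Rars, the arginyl enzyme, was the cytosolic gene next outside the threshold. It measured 191, 189 and 186 CPM in untreated libraries and 207, 206 and 214 CPM in doxycycline libraries, without overlap, with a log2 fold change of 0.15 (SE 0.044, adjusted p = 0.0704). Nars (asparagine) and Yars (tyrosine) followed with adjusted p of 0.0845 and 0.0851 in the same edgeR test.

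The groups did not overlap, with doxycycline higher, for 13 of the 20 cytosolic genes, and for 10.1% of all genes tested. None of the 20 had doxycycline libraries all below the untreated ones, which held for 11.1% of all genes. At an unadjusted p under 0.05, 10 of the 20 were higher, against 7.25% of all genes. The 13 were Tars, Cars, Rars, Nars, Yars, Aars, Sars, Wars, Lars, Eprs, Iars, Farsb and Hars. Of these, Farsb had the smallest log2 difference (0.055), with 108 ± 2.19 CPM untreated and 112 ± 0.456 CPM with doxycycline (SD, n = 3).

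Gars and Kars supply glycyl- and lysyl-tRNA synthetase to the cytosol and to mitochondria from a single gene each. Gars measured 259.6, 253 and 245 CPM untreated and 253, 269.7 and 265 CPM with doxycycline, a log2 difference of 0.057 (SE 0.045). Kars measured 352, 337 and 328 CPM untreated and 343, 368 and 355 CPM with doxycycline, a log2 difference of 0.068 (SE 0.046). Both genes overlapped between groups, with untreated replicate 1 above doxycycline replicate 1, and neither passed the test (adjusted p = 0.577 and 0.501, edgeR).

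Eprs, whose product carries the glutamyl and the prolyl activity in a single chain, had the highest CPM of the family. It measured 488, 494 and 483 CPM untreated and 502, 516 and 521 CPM with doxycycline, without overlap. Its log2 difference of 0.072 (SE 0.042) did not pass the test (adjusted p = 0.422, edgeR). Wars, the tryptophanyl enzyme, is known to be induced by interferon. It measured 114, 113 and 111 CPM untreated and 124, 122 and 117 CPM with doxycycline, also without overlap, with a log2 difference of 0.10 (SE 0.047, adjusted p = 0.28). The mean log2 CPM of 10 interferon-stimulated genes was 3.75, 3.82 and 3.84 untreated and 3.92, 4.17 and 3.64 with doxycycline. Among treated libraries replicate 3 was the lowest for Wars and for the interferon genes, but for the latter it also lay below every untreated library.

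The smallest cytosolic difference was that of Dars, the aspartyl enzyme, at 179 ± 3.4 CPM untreated and 179.9 ± 6 CPM with doxycycline (SD, n = 3). Qars, the glutaminyl enzyme, measured 157 ± 1.99 and 162 ± 9.49 CPM. Vars, the valyl enzyme, had the widest spread in CPM of the cytosolic genes, from 418 to 511 CPM over treated libraries, and its groups overlapped although its log2 difference was 0.12 (SE 0.060).

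**Figure D2:**
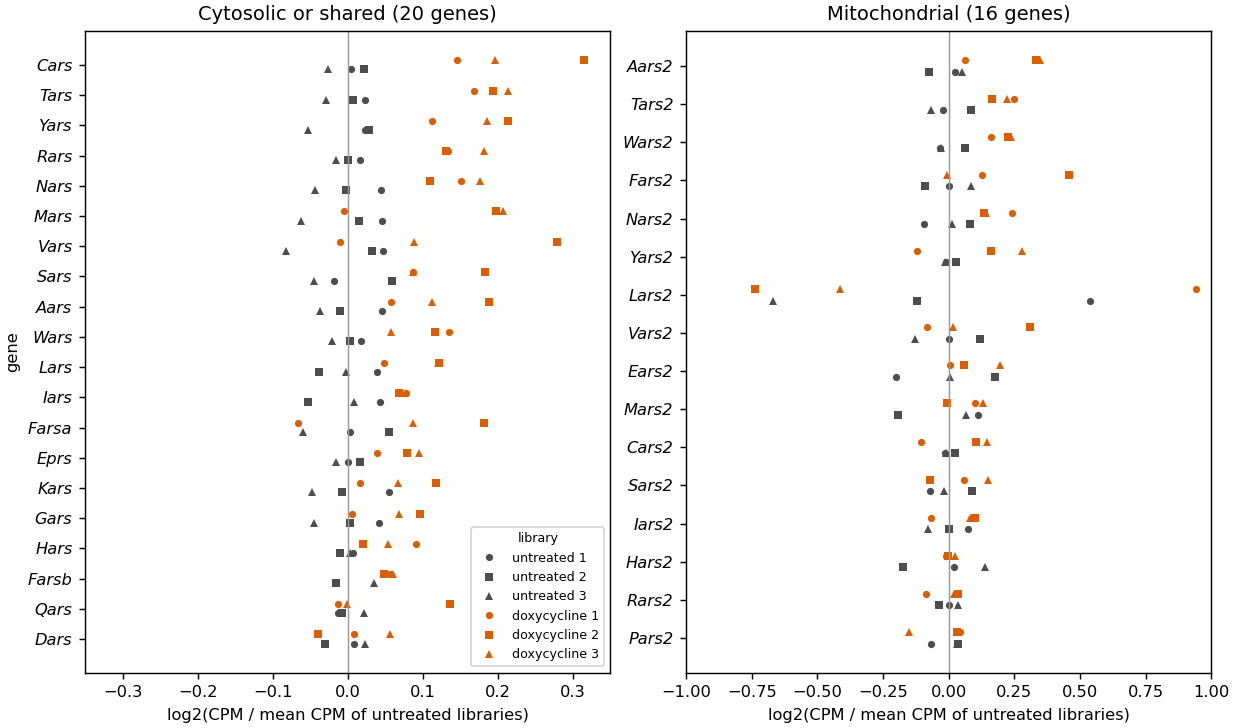
CPM of each synthetase in each library, as log2 of the ratio to the mean of the 3 untreated libraries, for 20 cytosolic or shared genes (left) and 16 mitochondrial genes (right, wider axis). Gray symbols are untreated and orange symbols doxycycline libraries; the highest library of every cytosolic gene is orange, and Lars2 is scattered in both groups.

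The highest value of a cytosolic gene was in a doxycycline library for 20 of 20 genes, in replicate 2 for 10, in replicate 3 for 7 and in replicate 1 for 3. Untreated replicate 3 held the lowest value for 13 of 20. The mean log2 CPM of the 20 genes was 7.46, 7.45 and 7.42 in untreated libraries and 7.50, 7.58 and 7.55 in doxycycline libraries. Together the 20 genes made up 0.399 to 0.413% of each untreated library's counts and 0.421 to 0.439% of each treated library's. Doxycycline replicate 2, the highest, was also the library with the largest share of the ribosomal precursor Rn45s (12.1%, against 8.83 to 11% in the other 5) and with the highest interferon gene mean, and the part of either in these values was not tested. Without doxycycline replicate 2 the cytosolic median was 0.080 and 4 genes were called (Cars, Nars, Rars, Tars). Over all genes, that fit called 269 of 13237 higher, against 121 of 13084 with all libraries.

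The mitochondrial synthetases had a median log2 fold change almost equal to that of the cytosolic ones, 0.094, with wider errors, and 0 of 16 passed the edgeR test. Over all genes tested, edgeR called 0.925% higher. At an unadjusted p under 0.05, 4 of 16 were higher, against 7.25% of all genes. DESeq2 called 1 of 16 (Tars2), and it called 176 of all 13084 genes higher. The log2 fold change was above 0 for 14 of 16 and below 0 for Pars2 and Rars2, and Hars2 (0.0009) turned negative with upper quartile or library size scaling and with no filter. SE ran from 0.054 to 0.62, against 0.042 to 0.060 for cytosolic genes. Without doxycycline replicate 3 the mitochondrial median was 0.0405.

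Tars2, the mitochondrial threonyl enzyme, was the gene of this class nearest the threshold. It measured 45.2, 48.6 and 43.7 CPM in untreated libraries and 54.4, 51.4 and 53.5 CPM in doxycycline libraries, without overlap. The log2 fold change was 0.21 (SE 0.061) and the adjusted p was 0.0621 (edgeR), so that the cytosolic threonine gene passed the threshold and the mitochondrial one lay just outside it.

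The groups also did not overlap for Wars2, Nars2 and Aars2, with doxycycline higher in each. This made 4 of 16 in all, against 10.1% of all genes tested. Wars2 (tryptophan) measured 23.6, 25.1 and 23.6 CPM untreated and 26.9, 28.1 and 28.4 CPM with doxycycline, a log2 difference of 0.21 (SE 0.072). Nars2 (asparagine) measured 26.1, 29.4 and 28.1 CPM untreated and 32.9, 30.6 and 30.8 CPM with doxycycline. Aars2 (alanine) had the largest log2 difference of all 36 genes, 0.25, but on low counts, with 9.97, 9.32 and 10.2 CPM untreated and 10.2, 12.3 and 12.5 CPM with doxycycline and an SE of 0.11. None of these passed the edgeR test, with adjusted p of 0.13, 0.221 and 0.232.

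The other 12 mitochondrial genes overlapped between groups. Pars2, the prolyl enzyme, was the lowest of the family at 6.17 ± 0.24 CPM untreated and 6.08 ± 0.446 CPM with doxycycline (SD, n = 3). Iars2, the isoleucyl enzyme, was the highest of the class at 118 ± 6.12 and 121 ± 7.55 CPM. It overlaps Rab3gap2, Mir194-1 and Mir215 in the annotation. Rars2, the arginyl enzyme, measured 27.5 ± 0.687 and 27.3 ± 1.24 CPM, and its groups overlapped, while those of its cytosolic counterpart Rars did not.

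**Figure D3:**
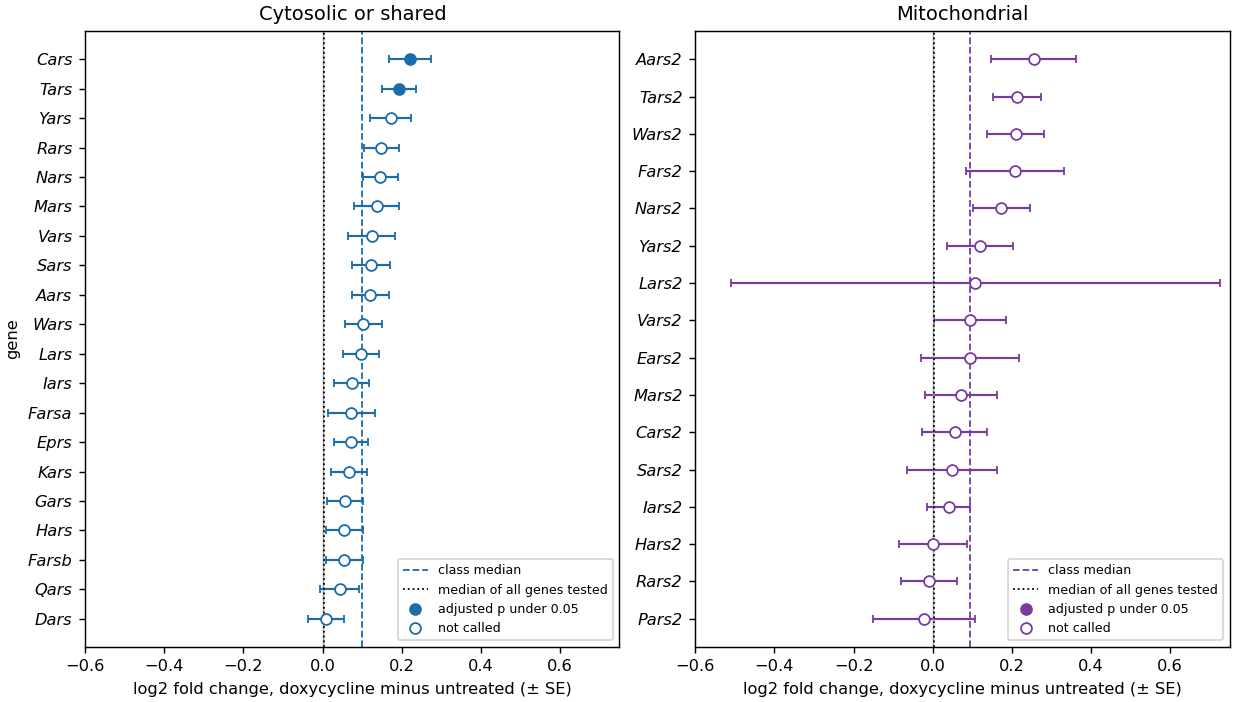
Log2 fold change (doxycycline minus untreated) with SE for the 20 cytosolic or shared genes (left) and 16 mitochondrial genes (right). Filled points passed an adjusted p of 0.05 (Cars and Tars), the dashed lines are the class medians (0.10 and 0.094) and the dotted line is the median of all genes tested (0.0025).

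Contrasting the classes, the medians differed by 0.0053 log2 units, cytosolic minus mitochondrial, and this difference lay between -0.023 and 0.052 when single libraries were left out. The mean log2 CPM of the 16 mitochondrial genes was 4.41, 4.40 and 4.36 in untreated libraries and 4.49, 4.48 and 4.48 in doxycycline libraries. The mean of the cytosolic genes minus that of the mitochondrial genes was 3.05, 3.05 and 3.06 untreated and 3.01, 3.10 and 3.07 with doxycycline. The ranges of this difference overlapped, so no shift between the cytosolic and the mitochondrial sets was seen beyond the spread of the libraries. Without Lars2 it was 3.19, 3.15 and 3.12 untreated and 3.18, 3.15 and 3.14 with doxycycline.

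For 16 counterpart pairs charging the same amino acid, the log2 ratio of cytosolic to mitochondrial counts was compared within each library, which does not depend on scaling. The ratio was higher with doxycycline in 10 pairs and lower in 6, with differences from -0.13 for Aars/Aars2 to 0.17 for Cars/Cars2 and a median of 0.042. Groups did not overlap in 2 pairs. For Cars/Cars2 the log2 ratio was 1.997, 1.98 and 1.96 untreated and 2.23, 2.19 and 2.03 with doxycycline. For Rars/Rars2 it was 2.79, 2.81 and 2.73 untreated and 2.999, 2.87 and 2.94 with doxycycline, a difference of 0.16. In each of these pairs the exact two-sided permutation p was 0.1, the smallest that 3 against 3 libraries allow, and the lowest adjusted p over the 16 pairs was 0.8. The Tars/Tars2 ratio, whose members both lay higher, was 2.44, 2.32 and 2.43 untreated and 2.31, 2.42 and 2.38 with doxycycline.

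Levels, unlike differences, separated the classes. Per kilobase of transcript in untreated libraries, cytosolic genes ran from 26.2 (Yars) to 169 (Kars) CPM per kilobase, with a median of 58.1. Mitochondrial genes ran from 2.82 (Pars2) to 21.5 (Iars2) CPM per kilobase, with a median of 6.36, and the ranges of the means did not overlap. Within pairs the cytosolic gene was 1.34 (Yars/Yars2) to 35.2 (Eprs/Pars2) times as high per kilobase, with a median of 8.6. At the top of the order Kars (169 ± 6.07 CPM per kilobase) stood apart from Gars (106 ± 3.15), Vars (102 ± 4.91) and Eprs (99.5 ± 1.12), of which Gars and Vars, and Vars and Eprs, lay within an SD of each other. Iars2 (21.5 ± 1.12), Yars2 (19.5 ± 0.31) and Tars2 (19.1 ± 1.04) led the mitochondrial set, and Yars2 and Tars2 lay within an SD of each other.

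**Figure D4:**
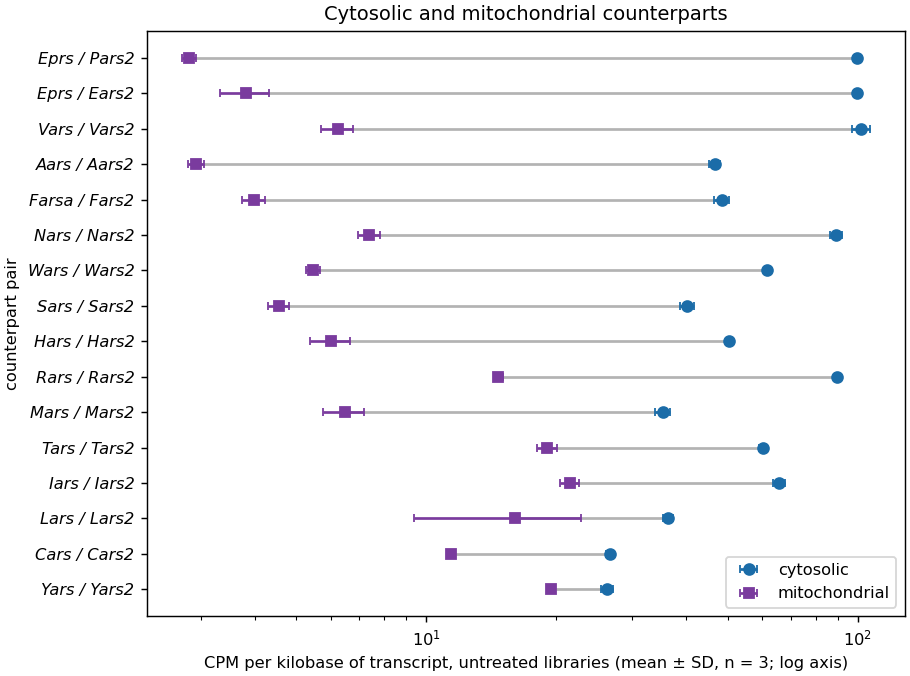
Untreated level of each cytosolic gene (circles) and its mitochondrial counterpart (squares) in CPM per kilobase of transcript on a log axis, mean ± SD of 3 libraries. The cytosolic gene is higher in each of the 16 pairs, by 1.34 to 35.2 times, and Lars2 carries the widest error bar.

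Lars2, the mitochondrial leucyl enzyme, varied between replicates more than any other of the 9879 genes with a mean of at least 5 CPM. It measured 90.9, 57.6 and 39.4 CPM in untreated libraries and 120.2, 37.5 and 47.0 CPM in doxycycline libraries. Replicate 1 was highest in each group, and the group ranges overlapped widely. Its SD within groups was 0.76 log2 units, against a median of 0.080 over the 9879 genes and 0.021 to 0.18 for the other 35 synthetases. The next largest SD among these 9879 genes was 0.45 (Igtp). The counts behind these values were large, 3993, 1920 and 1474 untreated and 3822, 1533 and 1799 with doxycycline. The log2 fold change was 0.11 with an SE of 0.62 (adjusted p = 0.961, edgeR), and without doxycycline replicate 1 it was -0.57.

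The genes whose pattern over the 6 libraries was most like that of Lars2 were looked for among 82 genes whose mean was 1 CPM or more and whose SD within groups was 0.5 or more, a search chosen after its values were seen. The most alike was Mir6236, annotated as a microRNA gene, with 9.66, 1.32 and 1.23 CPM untreated and 8.93, 0.245 and 1.15 CPM with doxycycline. It was highest in replicate 1 of both groups, as Lars2 was, and lowest in the library where Lars2 was lowest. The leucine gene of the cytosol, Lars, did not vary in this way, with 148, 141 and 144 CPM untreated and 149, 157 and 157 CPM with doxycycline. Lars2 overlaps Gm46137 in the annotation, and the part of shared reads in its spread was not tested.

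**Figure D5:**
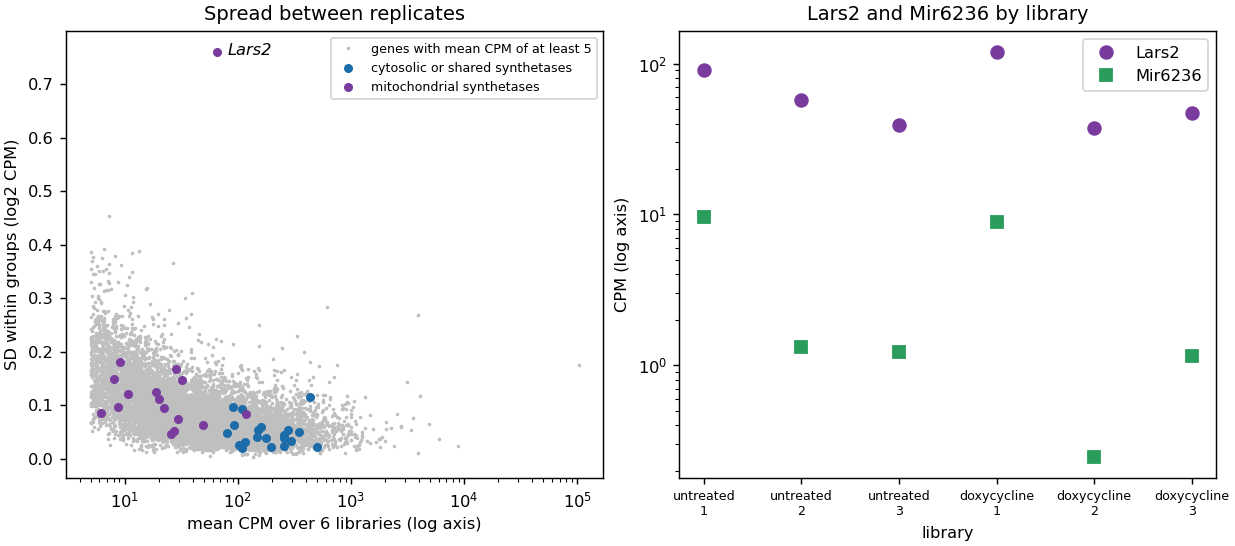
Left, SD within groups of log2 CPM against mean CPM (log axis) for 9879 genes with a mean of at least 5 CPM, with the synthetases colored by class and Lars2 at 0.76. Right, CPM of Lars2 and Mir6236 in each of the 6 libraries on a log axis, both highest in replicate 1 of each group.

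Subgroups of the cytosolic genes were described by what is known of their products. The 8 enzymes of the multisynthetase complex (Dars, Eprs, Iars, Kars, Lars, Mars, Qars, Rars) had a median log2 fold change of 0.073, 0 of 8 passed the edgeR test, 3 had an unadjusted p under 0.05 and 4 did not overlap between groups; DESeq2 called 1 of them (Rars). The 12 enzymes outside the complex had a median of 0.12, with 2 called and 9 without overlap. Over all genes tested, edgeR called 0.925% higher, 7.25% were higher at an unadjusted p under 0.05 and 10.1% were higher without overlap. The scaffold proteins of the complex, Aimp1, Aimp2 and Eef1e1, had log2 differences of 0.027 to 0.11, with 0 called and 0 at an unadjusted p under 0.05 in edgeR.

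The 13 cytosolic genes often reported as ATF4 targets had a median log2 fold change of 0.12. Of these, 2 were called, 9 were higher at an unadjusted p under 0.05 and 10 did not overlap between groups. The shares over all genes tested, with doxycycline higher, were 0.925%, 7.25% and 10.1% in the same order. The 7 cytosolic genes not listed as ATF4 targets (Dars, Farsa, Farsb, Hars, Kars, Qars, Rars) had a median of 0.055. Of these 7, 0 were called, 1 had an unadjusted p under 0.05 (Rars) and 3 were without overlap. The difference between these subgroups was not tested, and within the ATF4 subgroup Gars, whose window holds the element, had the lowest value (0.057). By structural class, the 9 class I enzymes had a median of 0.12 with 1 called (Cars), and the 10 class II enzymes a median of 0.070 with 1 called (Tars).

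Atf4 itself rose. It measured 174, 166 and 171 CPM in untreated libraries and 187, 201 and 199.7 CPM in doxycycline libraries, with a log2 fold change of 0.20 (SE 0.046, adjusted p = 0.0149, edgeR). Its groups did not overlap, and its size of change was like that of Tars (0.19) and Cars (0.22). A link between the change in Atf4 RNA and those of the synthetases was not tested. The call of Atf4 was lost without untreated replicate 1, 2 or 3 and without doxycycline replicate 3 (adjusted p from 0.0573 to 0.121).

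Of 28 genes listed as ATF4 and its targets other than synthetases, 27 were tested, 18 lay above 0 and 9 below, 3 rose and 2 fell, and the median was 0.076. Mthfd2, a mitochondrial folate enzyme, rose by 0.32 (SE 0.052), with 73.5 ± 1.05 CPM untreated and 91.9 ± 3.39 CPM with doxycycline (SD, n = 3). Asns, asparagine synthetase, rose by 0.21 (SE 0.052), a call lost without untreated replicate 1, 2 or 3 or doxycycline replicate 3 (adjusted p from 0.0686 to 0.153). In the other direction Ddit4, an inhibitor of mTORC1 induced by stress, fell by 0.63 (SE 0.10) and Cebpb, a C/EBP transcription factor, fell by 0.23 (SE 0.062). The call of Cebpb was lost without the same 4 libraries (adjusted p from 0.0724 to 0.231), with the GC content and length correction (0.0574) and after thinning (0.0661), while those of Mthfd2 and Ddit4 held in each of the 16 alternatives. The list thus held calls in both directions, where edgeR called 0.925% of all genes tested higher and 2.16% lower. Of the 36 synthetases, 0 were called lower by edgeR, DESeq2 or limma voom. At an unadjusted p under 0.05 in edgeR, 0 of the 36 were lower, against 1171 of all 13084 genes tested. Among the synthetases and all related lists, limma voom called the same genes as edgeR, and DESeq2 added 4 genes: Nars, Rars, Tars2 and Slc7a5.

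Of 11 amino acid transporters, 5 of which are also on the ATF4 list, 1 rose: Slc1a5, a glutamine carrier, by 0.20 (SE 0.050), from 107 ± 5.75 to 123 ± 2.03 CPM (SD, n = 3). This call was lost without untreated replicate 2 or 3 or doxycycline replicate 3 (adjusted p from 0.101 to 0.244). The median of the list was 0.037. At an unadjusted p under 0.05 in edgeR, 3 of the 11 were higher and 1 lower (Slc7a11, -0.20, adjusted p = 0.0805). Without overlap between groups, 2 of the 11 were higher and 2 lower. Over all genes tested, edgeR called 0.925% higher and 2.16% lower. The 9 genes of eIF2 kinases and eIF2 control had a median of 0.10, with 0 called by edgeR and 3 higher at an unadjusted p under 0.05. The 10 interferon-stimulated genes had a median of 0.16, with 0 called by edgeR and 2 lower at an unadjusted p under 0.05. DESeq2 and limma voom called 0 genes of either list, but other fits called some. The GC content and length correction called Eif2s1, Gcn1l1 and Ppp1r15b higher and Irf1 lower. That fit had 441 higher and 457 lower calls among 12605 genes. With no filter Irf7 was called higher (210 higher and 439 lower calls among 17661 genes). Gcn1l1 was called higher without doxycycline replicate 1 (207 and 356 among 13266), and Oasl2 without doxycycline replicate 3 (66 and 149 among 13225). Without doxycycline replicate 2, Eif2s1 and Ppp1r15b were called higher and Irf1 lower (269 and 487 among 13237). In the main fit the log2 fold change of Irf1 was -0.21 (adjusted p = 0.121, edgeR), with each doxycycline library below each untreated one. Over all genes in the main edgeR fit, 7.25% were higher and 1171 of 13084 lower at an unadjusted p under 0.05. Without overlap between groups, 10.1% of all genes were higher and 11.1% lower.

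Elongation factors bring charged tRNAs to the ribosome and move it along the message. The 5 cytosolic ones had a median log2 difference of 0.045 and a range of 0.0012 to 0.087, with 0 called, 0 at an unadjusted p under 0.05 and 0 without overlap. The 4 mitochondrial ones had a median of 0.11, near the synthetase medians, with 0 called by edgeR or DESeq2, 1 (Gfm1, 0.12) at an unadjusted p under 0.05 and 2 (Tufm, Gfm1) without overlap and higher with doxycycline. Gfm1 was called higher with the GC content and length correction. Over all genes tested, 7.25% were higher at an unadjusted p under 0.05 and 10.1% were higher without overlap. The mitochondrial matrix makes glutaminyl-tRNA by amidation rather than with its own glutaminyl enzyme, and the 3 subunits of that amidotransferase (Qrsl1, Gatb, Gatc) with the formyltransferase Mtfmt had log2 differences from 0.026 to 0.20, with 0 called and 0 at an unadjusted p under 0.05. Since the RNA was from whole cultures, fewer cells expressing a gene and less RNA per cell cannot be told apart for any of these values.

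Transcripts of the family differ in base composition, from 41.2 to 60.9% GC for cytosolic and from 38.8 to 60.1% for mitochondrial genes. When each library was corrected for GC content and transcript length, 8 of 20 cytosolic genes (Aars, Cars, Nars, Rars, Sars, Tars, Vars, Yars) and 2 of 16 mitochondrial genes (Tars2, Wars2) were called higher, against 3.5% of the genes tested in that fit. The medians were 0.11 and 0.10, so the sizes of change were near those without the correction.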

How the data were processed

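Total RNA was sequenced from 6 libraries made with a stranded kit after removal of ribosomal RNA. The authors deposited raw read counts per gene, not normalized, with replicates kept apart. Per the submitters' notes reads were demultiplexed with bcl2fastq 2.20, aligned to mm10/GRCm38 with STAR and counted with featureCounts (Subread 1.6.2). The strand setting and the handling of reads mapping to several places are not given in the sources used here, so reads shared by overlapping or near-identical genes may be split.

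Synthetases were taken by symbol. The genes, the related lists, the subgroups and the tests were chosen with earlier results of these data known, from general knowledge, and no test was made over a list. All 36 genes are named; values per library are given for those past the threshold, for the next outside it in each class, and for Gars, Kars, Eprs and Wars. Those of Wars2, Nars2, Aars2, Lars, Lars2 and Mir6236 were added after values were seen.

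All genes were tested together with the edgeR 4.0.16 quasi-likelihood test (R 4.3.3; robust, TMM scaling, filterByExpr, group as the only term), two-sided, with Benjamini-Hochberg adjustment at 0.05. The study used DESeq2 with no stated covariate. SE was derived from the F statistic, as the size of the log2 fold change over its root. CPM used TMM-scaled totals, and mean log2 CPM added a prior of 0.5 counts. Replicates were compared by chi-square of their counts (6.35 to 23.2 per degree of freedom), so each library was counted once. The fit was tested on simulated data. Transcript lengths and GC content came from GENCODE M21 (GRCm38), the principal transcript capped at the gene's RefSeq span, and were found for 96.3% of tested genes; coordinates and promoter windows came from RefSeq GRCm38.p6, counted from 1, and 1 window is not reported here. Pairs were compared by exact permutation of the log2 count ratio. The alternatives, 16 in all, were scaling by library size alone, by upper quartiles or by DESeq2 size factors, a filter of 10 counts per library or none, a block for replicate number, each library left out in turn, DESeq2 1.42.0, limma 3.58.1 voom, GC and length correction (loess, span 0.5) and thinning to the smallest total. Leaving out Lars2 was added after the data were seen. Proteins were not compared, since no protein sequences were used here.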

Additional observations from a re-analysis of the deposited data

How the results depend on the processing

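The cytosolic median kept its sign in all 16 alternatives, between 0.080 and 0.13. Calls for Cars and Tars held in 12 of 16, the exceptions being the fits without untreated replicate 1, 2 or 3 and without doxycycline replicate 3. With no filter, 210 genes were higher and 439 lower, 1 mitochondrial synthetase was called (Tars2), and 7 related genes were higher and 4 lower. With the GC content and length correction 441 genes were higher and 457 lower, so that 49.1% of calls were higher against 30% without it; 8 cytosolic and 2 mitochondrial synthetases and 12 related genes were called higher. DESeq2 called 4 cytosolic and 1 mitochondrial synthetases. Thinning left 1 related gene lower (Ddit4). With upstream bases only, 2 cytosolic promoter windows held the element.

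Leaving out each library in turn gave 44 to 269 genes higher and 116 to 487 lower, 0 to 4 cytosolic and 0 to 1 mitochondrial synthetases called, 1 to 8 related genes higher and 1 to 5 lower, a mitochondrial median of 0.0405 to 0.1286 and a class difference of -0.0228 to 0.0521. The fewest genes were called without untreated replicate 3 and the most without doxycycline replicate 2. The cause of these differences was not tested.

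Among the synthetases, signs turned only for genes that did not pass the test. Dars was -9e-04 with library size only. Hars2 was -0.0061 with upper quartile factors, -0.0098 with library size only and -0.0023 with no filter. Lars2 was -0.0461 with limma voom, Pars2 0.0445 after thinning and Rars2 0.0152 with the GC correction. Over the fits without a library, log2 fold changes ran as follows: Dars -0.0156 to 0.0328, Qars -0.0073 to 0.0695, Ears2 -0.0013 to 0.1881, Hars2 -0.0758 to 0.0733, Lars2 -0.5738 to 0.4862, Mars2 -0.0122 to 0.1315, Pars2 -0.0558 to 0.0382, Rars2 -0.0330 to 0.0258, Sars2 -0.0067 to 0.1077 and Vars2 -0.0312 to 0.1715. The median of all genes was 0.0025 with TMM and with DESeq2 size factors, -0.0044 with upper quartile factors and -0.0074 with library size only. The cytosolic median in these fits was 0.0995, 0.0996, 0.0928 and 0.0896.

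Replicate numbers did not pair the samples: the correlations of deviations from the group means between same-numbered libraries were -0.034, 0.002 and 0.02, and 0 of 3 libraries correlated best with its own number. With the replicate block 118 genes were higher and 300 lower, Cars and Tars were called, and the class medians were 0.0995 and 0.0822. Leaving out Lars2 left the mitochondrial median at 0.094 and the class difference at 0.0055. The median SE was 0.047 for cytosolic and 0.089 for mitochondrial genes, beside class medians of 0.0995 and 0.0942. At an unadjusted p under 0.05 in edgeR, 10 of 20 cytosolic and 4 of 16 mitochondrial genes were higher. After adjustment over all genes, 2 of 20 and 0 of 16 passed, so most single genes did not pass with 3 libraries per group.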

Other observations

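The genes next in correlation with Lars2 were Snord15a, a small nucleolar RNA, and Tcn2, which encodes transcobalamin. Snord15a measured 3.94, 2.10 and 2.99 CPM untreated and 5.47, 1.96 and 3.03 CPM with doxycycline. Tcn2 measured 1.82, 1.83 and 1.66 CPM untreated and 2.202, 0.784 and 1.202 CPM with doxycycline. Both followed the order of Lars2 in doxycycline libraries. Among untreated libraries Snord15a was lowest in replicate 2 and Tcn2 was nearly flat, while Lars2 was lowest in replicate 3. Over the 6 libraries of both groups, Pearson's r of log2 CPM with Lars2 was 0.919 for Mir6236, 0.82 for Snord15a and 0.741 for Tcn2, a description of values chosen for their likeness among 82 genes and given without a test. The ribosomal precursor Rn45s, which took 8.83 to 12.1% of counts, had r = -0.627. Doxycycline replicate 2 had the highest Rn45s share and the lowest Lars2, Mir6236, Snord15a and Tcn2 values of the 6 libraries, and was also the library in which most cytosolic synthetases (10 of 20) were highest. Mir6236 rested on 10 to 424 counts per library.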
